A study of Mus musculus with 11 samples.

Results

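The genes described here are the translation initiation and elongation factors, taken as every protein-coding gene of the expression table whose mouse symbol starts with Eif (eukaryotic initiation factor) or Eef (eukaryotic elongation factor). This rule gave 68 of the 48795 genes in the table, of which 21772 are protein-coding. A further 8 symbols with these letters are not protein-coding and were left out. The symbol alone chose the members, so the set also holds regulators of the factors, such as the eIF2α kinases, the eIF4E binding proteins, the eEF2 kinase and the methyltransferases of the elongation factors. Roles were assigned by hand to 10 groups of 3 to 14 members.

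RNA was sequenced from B cells sorted from the spleens of female mice aged 8 to 12 weeks, 10 days after immunization with sheep red blood cells (SRBC), which drives a germinal center (GC) response. Light zone (LZ) GC B cells, sorted as B220+ CD138neg IgDneg CD38neg Fas+ CD86high CXCR4low, came from 4 Myc WT mice (mice 1 to 4) and from 4 Myc V394D mice (mice 5 to 8), and memory B cells (MBCs), sorted as B220+ CD138neg IgDneg CD38+ CD273+, came from Myc WT mice 1, 3 and 4. V394D is a substitution at the endogenous Myc locus, present in all cells of the mouse, after which MYC no longer binds its partner MIZ1 but still binds MAX. Each library is 1 sorted population of 1 mouse. The mouse codes in the labels have 1 stem for Myc WT mice 1 to 3, another for mouse 4 and yet another for all Myc V394D mice. What a stem stands for is not given in the sources used here, and its effect and that of genotype cannot be told apart.

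In translation initiation, eIF2 with GTP brings the initiator tRNA to the small ribosomal subunit, where eIF1, eIF1A, eIF3 and eIF5 help to find the start codon, while eIF4F, made of the cap-binding protein eIF4E, the RNA helicase eIF4A and the scaffold eIF4G, recruits the mRNA. eIF2B recharges eIF2 with GTP, and phosphorylation of the eIF2 alpha subunit by stress kinases slows this step. During elongation eEF1A delivers aminoacyl-tRNA, the eEF1B subunits recharge eEF1A, and eEF2 moves the ribosome along the mRNA. MYC is known for driving ribosome production and translation, and LZ B cells that express MYC are the positively selected cells that grow before they divide, whereas MBCs are resting cells.

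The values are TPM, the estimated transcripts of each gene after division by its length, scaled to a fixed total of 1000000 in each library, so levels may be compared between genes, but the number of reads behind them is unknown and no counting error can be given. rRNA genes took 35.7% to 44.5% of the TPM in Myc WT LZ libraries, 44.1% to 61.3% in Myc V394D LZ libraries and 36.1% to 37.5% in MBC libraries, which leaves less of the fixed total for all other genes in the Myc V394D libraries. Every comparison is therefore also given after removal of the 356 rRNA genes and rescaling of each library to 1000000 TPM. The 8 listed GC markers summed to between 1203 and 1641 TPM in LZ libraries and to between 329 and 448 TPM in MBC libraries. The 8 memory or naive B cell markers summed to between 229 and 289 TPM and between 1309 and 1602 TPM in the same order. Sums of the 4 listed light zone markers overlapped between LZ and MBC libraries. They were 447 to 733 TPM in Myc WT LZ, 375 to 477 TPM in Myc V394D LZ and 361 to 562 TPM in MBCs. The 5 dark zone markers summed to 511 to 983, 524 to 960 and 197 to 293 TPM in these groups. The lists therefore tell GC B cells from MBCs but do not show the light zone label. Erythroid transcripts (6 listed) summed to 6713 TPM in the MBC library of mouse 3 and to between 7.60 and 410 TPM in the other 10 libraries. Myeloid transcripts (6 listed) summed to between 13.98 and 164 TPM in MBC libraries and to at most 12.4 TPM in LZ libraries. Csf1r (9.99, 5.89 and 16.35 TPM in MBCs of mice 1, 3 and 4) and Itgam (3.84, 5.12 and 9.18 TPM) were higher there than in any LZ library. Lyz2 was at 0.15, 31.2 and 136 TPM in MBCs and at up to 11.98 TPM in LZ libraries. C1qa was above 0 in the MBC library of mouse 4 alone, and S100a8 and S100a9 were at 0 in all MBC libraries. Their part in the differences of the factors was not tested. In bulk RNA, fewer cells of a type and less RNA per cell cannot be told apart.

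**Figure D1:**
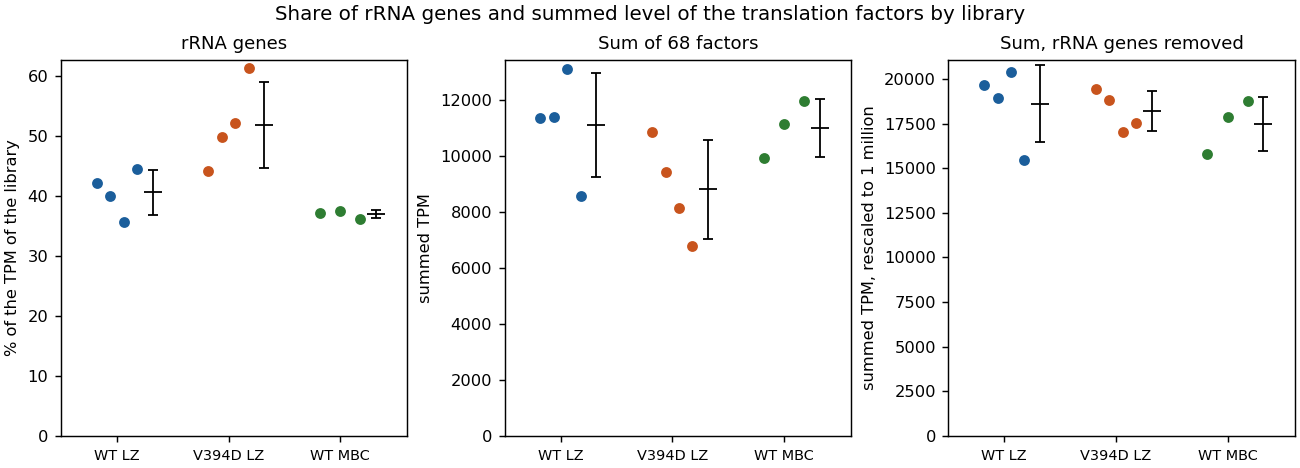
Share of each library's TPM on rRNA genes (left, percent) and summed level of the 68 factors before (middle, TPM) and after (right, TPM rescaled to 1000000) removal of the rRNA genes. Points are libraries (4 Myc WT LZ, 4 Myc V394D LZ, 3 Myc WT MBC), with the mean and SD beside them. The Myc V394D libraries reach 61.3% rRNA, and their sums of 6773 to 10871 TPM become 17015 to 19445 TPM once the rRNA genes are removed.

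Together the 68 factors took 8589 to 13118 TPM in Myc WT LZ B cells, 6773 to 10871 TPM in Myc V394D LZ B cells and 9922 to 11977 TPM in MBCs. After removal of the rRNA genes these sums were 15485 to 20401, 17015 to 19445 and 15791 to 18752 TPM, and the ranges of Myc V394D LZ B cells and MBCs then both lay within that of Myc WT LZ B cells. Of the 68 members, 60 were above 0 in every library, and 23 averaged 100 TPM or more across all 11. Eef1a1, which encodes the main eEF1A, ranked between 9 and 20 among all genes in each library and alone made up 27.4% to 34.0% of the summed factor TPM. Its level was 3161, 3268, 3714 and 2351 TPM in LZ B cells of Myc WT mice 1 to 4, 3318, 2985, 2773 and 2198 TPM in those of Myc V394D mice 5 to 8, and 3057, 3430 and 3582 TPM in MBCs of mice 1, 3 and 4. These ranges overlapped in all pairs of groups. Its muscle and neuron paralog Eef1a2 was listed at 0 in all 11 libraries, as were Eif4e1b, a germ cell form of eIF4E, and the Y-linked Eif2s3y, which female mice do not carry.

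Levels differed widely within complexes. Among the 14 genes of eIF3, the scaffold that holds the small ribosomal subunit, mean TPM in Myc WT LZ B cells ran from 13.5 for Eif3j1 to 326 for Eif3h. The 3 subunits of eIF2 were at 57.0 ± 14.1 TPM for Eif2s1 (alpha), 102 ± 23.8 TPM for Eif2s2 (beta) and 90.7 ± 23.9 TPM for Eif2s3x (gamma) in the same cells (SD, n = 4). All 5 subunits of eIF2B lay lower, with means between 11.8 and 42.1 TPM.

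**Figure D2:**
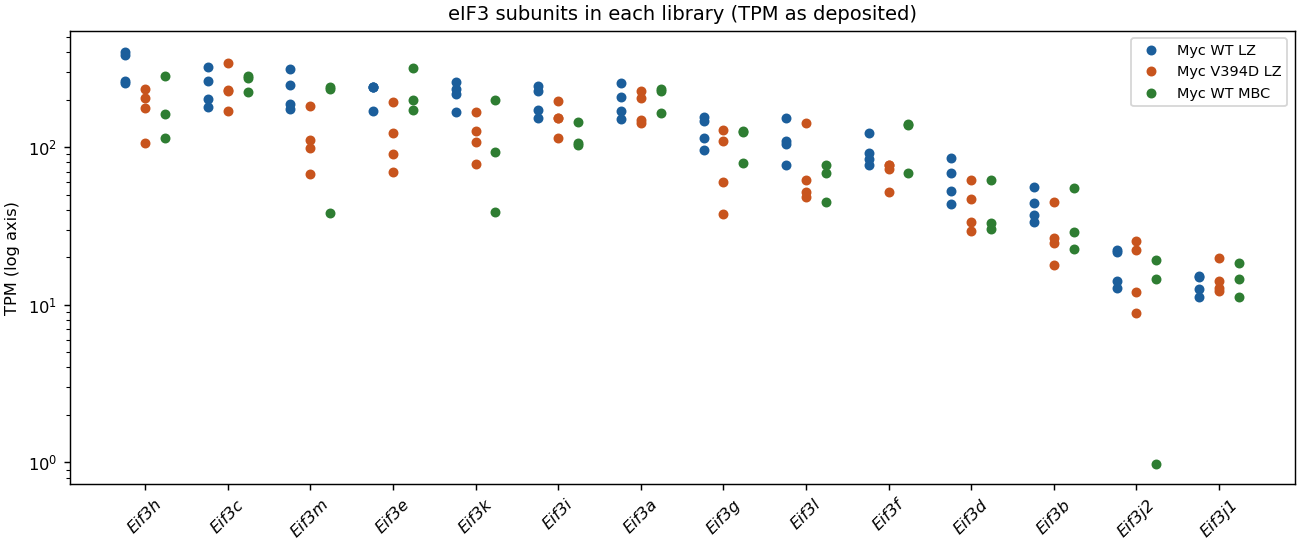
Level of the 14 eIF3 subunit genes (TPM, log axis), ordered by their mean in Myc WT LZ B cells. Each point is 1 library, coloured by group. The order of the subunits from Eif3h to Eif3j1 spans over an order of magnitude, and the MBC library of mouse 1 stands low for Eif3m (38.2 TPM) and Eif3j2 (0.98 TPM).

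Large differences between libraries of a group were most frequent in MBCs. Of the 56 members with a mean of at least 10 TPM, the highest library exceeded the lowest by over 4-fold, on TPM + 1, for 0 members in Myc WT LZ, 3 in Myc V394D LZ and 12 in MBCs. For all 7034 genes with such a mean the shares were 1.99%, 13.9% and 36.7%, against 5.36% and 21.4% of the members in the last 2 groups. The median SD on the log2 scale was 0.34 for the members and 0.29 for all genes in Myc WT LZ, 0.46 and 0.49 in Myc V394D LZ, and 0.52 and 0.79 in MBCs. The members' median ratio of the highest to the lowest library was 1.67, 2.00 and 1.92 in these groups, beside 1.56, 2.15 and 2.82 for all genes. The MBC values rest on 3 libraries and the others on 4, and a ratio of highest to lowest tends to be smaller over fewer libraries. Examples in MBCs were Eif6, an anti-association factor of the large ribosomal subunit, at 2.62, 6.87 and 83.2 TPM in mice 1, 3 and 4, Eif1a at 57.9, 0.66 and 55.3 TPM, and Eef1d, an eEF1B subunit, at 222, 12.3 and 146 TPM. Mouse 3 was low for all 3 of these genes, and it was the highest MBC library for Eefsec, at 86.3 TPM beside 2.20 and 6.69 TPM.

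The first comparison asks how loss of MYC-MIZ1 binding relates to these genes in LZ B cells. In the TPM as deposited most factors were lower in Myc V394D, with 55 of the 63 members tested below their Myc WT level and 8 above it (87.3% lower, beside 73.7% of all genes), and a median log2 difference of -0.48. The median of all 12869 genes tested was -0.31, so genes at large also lay lower. After removal of the rRNA genes, 43 members were lower and 20 higher (68.3% lower, beside 54.2% of all genes), with a median of -0.17 beside -0.05 for all genes. With single libraries left out this median ran from -0.29 (without Myc WT mouse 4) to -0.09 (without Myc V394D mouse 7). Testing required an average of 1 TPM or more across the 8 libraries, which left out Eef1a2, Eif4e1b, Eif2s3y, Eef1akmt3 and Eef2k. As deposited, Eif4e3 passed only through Myc WT (means of 0.89 TPM in Myc V394D and 1.34 TPM in Myc WT). Of the other 62 members 54 were lower, beside 8850 of the 11777 genes averaging 1 TPM or more in both groups. Their medians were -0.48 and -0.30. At an unadjusted p under 0.05 (limma) 16 of the 62 were lower (25.8%), beside 15.7% of these genes.

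No member passed the adjusted threshold of 0.05 (limma with Benjamini-Hochberg adjustment over all genes tested) in either direction, beside 0.00777% of all genes that did so as higher and 0.0389% as lower. At an unadjusted p under 0.05, 0 members were higher and 16 were lower, which is 25.4% of those tested, beside 1.24% and 15.7% of all genes. The lower count ran from 9 without Myc WT mouse 3 (14.3%, beside 9.43% of all genes) to 29 without Myc V394D mouse 5 (46.8%, beside 21.5%). After removal of the rRNA genes again 0 members passed in either direction, beside 0% of all genes as higher and 0.00697% as lower, and at the unadjusted threshold 3 were higher, with 6 lower (4.76% and 9.52% of the members), beside 4.55% and 6.56% of all genes. Without Myc V394D mouse 5, whose share of rRNA was the lowest of its group, 4 members fell, Eif4e2, Eif3e, Eif3m and Eif3k, with adjusted p between 0.0401 and 0.0475, which is 6.45% of the members tested beside 1.88% of all genes. With the rRNA genes removed, none passed when any library was left out.

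Eef1b2 had the smallest p among the members that were lower. It encodes the exchange factor subunit that recharges eEF1A, and its level was 647, 741, 765 and 576 TPM in Myc WT mice 1 to 4 and 443, 464, 309 and 265 TPM in Myc V394D mice 5 to 8. All Myc V394D libraries lay below all Myc WT libraries, as they did for 6 members in all (9.52%, beside 9.16% of all genes; 21 members or 33.3%, beside 15.6%, without Myc WT mouse 4, and 15 or 24.2%, beside 19.3%, without Myc V394D mouse 5), with a log2 difference of -0.91 (95% interval -1.39 to -0.43, adjusted p = 0.111 by limma). The groups stayed apart after removal of the rRNA genes, with a log2 difference of -0.60 (interval -0.93 to -0.26, adjusted p = 0.204). Eif4e2, the cap-binding relative of eIF4E that can repress translation, was at 55.4, 46.8, 52.5 and 36.8 TPM in Myc WT and 36.4, 5.67, 13.98 and 17.2 TPM in Myc V394D. Its groups also did not overlap, although mouse 5 came within 1 TPM of the lowest Myc WT library, and the log2 difference was -1.58 (interval -2.52 to -0.64, adjusted p = 0.130).

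The other 3 of the 5 members with the smallest p on this side were subunits of eIF3. Eif3k was at 259, 217, 235 and 167 TPM in Myc WT and at 168, 126, 107 and 78.6 TPM in Myc V394D, with a log2 difference of -0.90 (adjusted p = 0.132). Eif3m, at 186, 314, 247 and 174 TPM in Myc WT and 182, 110, 98.5 and 67.5 TPM in Myc V394D, gave -1.05 (adjusted p = 0.141). For both genes the library of mouse 5 was the highest of its group and reached the range of Myc WT. Eif3e was at 242, 240, 239 and 170 TPM in Myc WT and 193, 90.3, 123 and 69.0 TPM in Myc V394D, a log2 difference of -0.99 (adjusted p = 0.148). Its processed pseudogene Eif3s6-ps2, with which it could share reads, was at 0, 0, 0 and 3.33 TPM in Myc WT and at 10.6, 0, 33.0 and 13.5 TPM in Myc V394D, and its part in the difference was not tested. Across the 14 eIF3 genes 13 were lower and 1 higher, with a median log2 difference of -0.58, and 4 had an unadjusted p under 0.05, where 73.7% of all genes were lower and 15.7% were lower at that threshold. With the rRNA genes removed 10 were lower and 4 higher, with a median of -0.28 (54.2% of all genes were then lower), and Eif3a, Eif3c, Eif3j1 and Eif3j2 were those on the higher side.

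Among the members that were higher in Myc V394D none had a p under 0.05. Eef1akmt2, a lysine methyltransferase of eEF1A, came first, at 13.1, 13.3, 12.8 and 12.7 TPM in Myc WT and at 33.7, 20.9, 21.4 and 10.6 TPM in Myc V394D. Mouse 8, the library with most rRNA, was the only one of its group below Myc WT, and the log2 difference was 0.59 (interval -0.12 to 1.31, adjusted p = 0.379). After removal of the rRNA genes the groups did not overlap and the log2 difference was 0.91 (interval 0.31 to 1.51, adjusted p = 0.259). Eif4g1, the scaffold of eIF4F, was at 63.2, 57.9, 72.6 and 51.8 TPM in Myc WT and 76.1, 101, 73.0 and 50.8 TPM in Myc V394D, with a log2 difference of 0.26 (interval -0.26 to 0.78, adjusted p = 0.601) that was 0.57 without the rRNA genes (interval 0.17 to 0.98, adjusted p = 0.287). In all 8 members were higher, and the other 3 of the 5 with the smallest p were Eefsec, the elongation factor for selenocysteine, with a log2 difference of 0.34 (adjusted p = 0.681), Eif4ebp2, a repressor of eIF4E, with 0.23 (adjusted p = 0.732), and Eif3j1 with 0.10 (adjusted p = 0.874). The last of these turned to -0.04 without mouse 5, and with single libraries left out Eefsec ran from 0.08 to 0.74, Eif4ebp2 from 0.06 to 0.48 and Eif4g1 from 0.11 to 0.43. Eef1akmt2 ran from 0.35 to 0.88 in the same way. Eefsec was at 13.1, 14.9, 14.97 and 12.1 TPM in Myc WT and 26.3, 30.8, 15.9 and 7.15 TPM in Myc V394D, where mouse 8 alone lay below Myc WT. Eif3j1 was at 15.1, 15, 12.6 and 11.2 TPM in Myc WT and 19.9, 12.2, 12.8 and 14.1 TPM in Myc V394D, with overlap.

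The roles differed in how far they lay from the shift of all genes. As deposited, the largest role medians on the lower side were those of eIF2B (-0.71, 5 tested), start codon selection (-0.64, 7 tested), eIF2 and its relatives (-0.62, 5 tested) and eIF3 (-0.58). These 4 medians stayed below 0, at -0.45, -0.34, -0.32 and -0.28, without the rRNA genes, and also under the other 2 scalings. The 4 eIF2α kinases (Eif2ak1 to Eif2ak4) had a median of -0.25 as deposited and of 0.04 without the rRNA genes, and the eIF4E binding proteins -0.05 and 0.24, so that their direction turned with the scaling. In none of the 10 roles did a member pass the adjusted threshold.

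**Figure D3:**
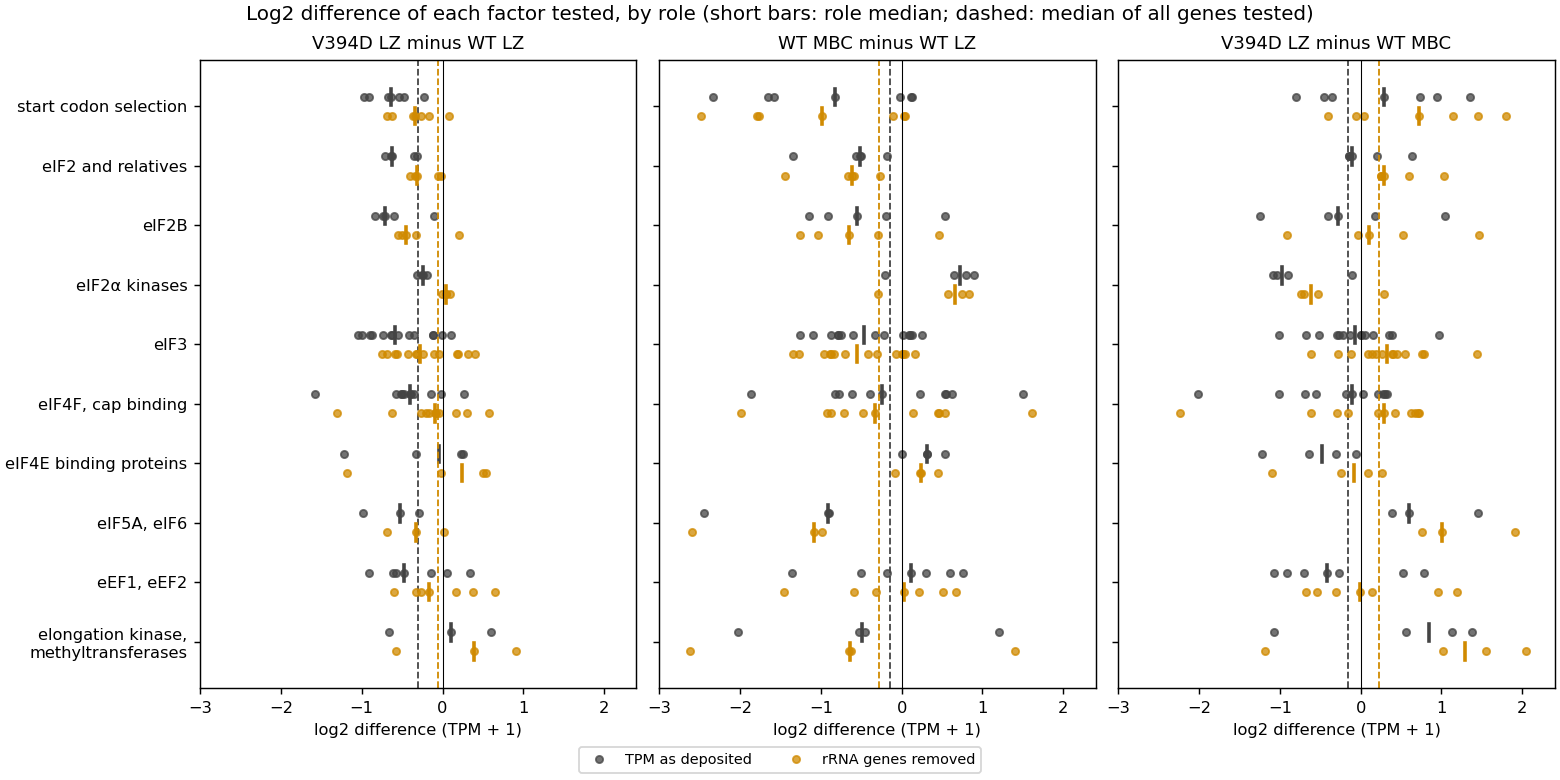
Log2 difference on TPM + 1 of each member tested, by role, for the 3 comparisons. Points are genes (63 tested in the first comparison, 64 in the others), grey for TPM as deposited and orange after removal of the rRNA genes, with a short bar at the role's median and a dashed line at the median of all genes tested. In the left panel the grey points lie mostly to the left of 0, in the middle panel 3 of the 4 eIF2α kinases lie to the right and 1 (Eif2ak3) to the left, and in the right panel the dashed line moves from -0.16 to 0.22.

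Several central factors showed no difference that passed between genotypes. Eif4e, the cap-binding protein and itself a known MYC target, was at 58.8, 90.4, 87.9 and 42.4 TPM in Myc WT and 46.5, 114, 31.0 and 28.8 TPM in Myc V394D. Mouse 6 had the highest level of all libraries while the other 3 Myc V394D libraries lay near or below the lowest Myc WT library. Eef2, the translocation factor, was at 581, 397, 652 and 334 TPM and at 615, 542, 433 and 410 TPM, with overlapping groups. The hypusine-containing factor Eif5a was at 410, 277, 378 and 228 TPM and at 268, 397, 232 and 175 TPM. Eif2s1, the subunit of eIF2 that the kinases phosphorylate, was at 50.1, 71.3, 65.7 and 40.7 TPM and at 54.7, 28.4, 31.1 and 26.5 TPM, where mouse 5 again stood with Myc WT. Eif2s3x, the eIF2 gamma subunit, overlapped too, at 96.7, 79.9, 121 and 65.3 TPM against 106, 83.0, 64.9 and 43.3 TPM. The kinase that senses uncharged tRNA, Eif2ak4, was at 14.3, 8.32, 7.14 and 5.69 TPM against 6.46, 13.5, 4.67 and 5.53 TPM. Eif6 was at 71.8, 79.2, 94.4 and 49.3 TPM against 20.2, 40.8, 37.7 and 51.9 TPM, and only mouse 8 reached the Myc WT range. The eEF2 kinase gene Eef2k was at 0, 0.47, 0.27 and 0.06 TPM against 0.94, 0.48, 0 and 0 TPM. Of these genes Eif2s1 and Eif6 had an unadjusted p under 0.05 as lower (limma). Of the 6 erythroid transcripts listed, 5 were higher in Myc V394D LZ, 3 of them at an unadjusted p under 0.05 (beside 1.24% of all genes), with a median log2 difference of 1.19. Without the rRNA genes all 6 were higher, 5 at the unadjusted threshold (beside 4.55%), with a median of 1.51, and 0 passed the adjusted threshold by limma in either case. Their sums overlapped between genotypes, at 116 to 226 TPM in Myc WT LZ and 71.9 to 410 TPM in Myc V394D LZ, and their part in the differences of the factors was not tested.

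The second comparison asks how MBCs differ from LZ B cells of Myc WT mice, and in it Eif1ax and Eif1b fell. Of the 64 members tested, Eef1akmt1 is listed at 0 in all MBC libraries and reached the filter on low values only through the LZ libraries, and Eef2k reached it only through 9.35 TPM in the MBC library of mouse 3. Passing through 1 group alone favors a difference, although Eef2k overlapped between the groups and was not called. The counts here are therefore of the other 62, which averaged at least 1 TPM in both groups. The 2 that fell are 3.23% of them, beside 5.04% of all 13245 genes tested and 4.34% of the 11387 genes with such an average in both groups. On the higher side 0 members passed, beside 4.17% and 4.25% of these genes. At an unadjusted p under 0.05 (limma), 4 members were higher and 12 lower, or 6.45% and 19.4%. Of all genes 11.3% and 15.8% were so called, and of those averaging 1 TPM or more in both groups 11.6% and 14.4%. In all, 38 of the 62 were lower and 24 higher. Their median log2 difference was -0.29, beside -0.14 for all genes and -0.13 for those averaging 1 TPM or more in both groups. Over all members tested this median ran from -0.42 without LZ mouse 4 to -0.18 without the MBC library of mouse 1, where all genes had -0.21, so that the members then did not lie lower than genes at large. After removal of the rRNA genes 3 of 62 members fell, with Eif4a1 (adjusted p = 0.0351) added to Eif1ax and Eif1b, or 4.84% beside 5.57% of all genes, and 0 were higher beside 3.47%. At the unadjusted threshold 16 were then lower and 3 higher (25.8% and 4.84%) beside 17.9% and 9.62%. The median was then -0.38 beside -0.28 for all genes. Of the 12219 genes that then averaged 1 TPM or more in both groups, 4.95% fell and 3.64% rose. At the unadjusted threshold 16.1% of them were lower and 10.1% higher, and their median was -0.23.

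Eif1ax encodes a form of eIF1A, which keeps the scanning ribosome open until it meets a start codon (chrX:159372178-159389928, plus strand, GRCm38). Its level was 30.2, 45.4, 43.6 and 26.9 TPM in LZ B cells and 9.61, 8.04 and 15.5 TPM in MBCs of mice 1, 3 and 4. The groups did not overlap, and it fell by 1.65 on the log2 scale (95% interval -2.50 to -0.81, adjusted p = 0.0294 by limma). Eif1b, a paralog of the start codon fidelity factor Eif1 (chr9:120492232-120495330, plus strand), was at 38.1, 44.8, 65.5 and 38.1 TPM in LZ B cells but 4.30, 5.52 and 21.6 TPM in MBCs. Again all MBC libraries lay below all LZ libraries, with mouse 4 nearest to them, and the log2 difference was -2.33 (interval -3.53 to -1.14, adjusted p = 0.0295). Such a lack of overlap on the lower side held for 9 of the 64 members tested, Eef1akmt1 among them. This is 14.1%, beside 14.4% of all genes, near the background. Eef1akmt1, a lysine methyltransferase of eEF1A, was at 4.48, 4.05, 2.66 and 1.74 TPM in LZ B cells and listed at 0 in all 3 MBC libraries, so neither a fold nor a p is given.

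These calls depended on single libraries. Leaving out any 1 of the 4 LZ libraries left 0 members past the threshold, beside 1.03% to 2.00% of all genes that fell. Leaving out the MBC library of mouse 1 left Eif1ax and added Eif3k, or 3.23% beside 4.43%. Without the MBC library of mouse 3, which held most erythroid transcripts, 3 of 62 members fell (Eif1ax, Eif1b and Eif5a), or 4.84% beside 5.9% of all genes, and Eif4e3 rose, or 1.61% beside 6.78%. Without that of mouse 4, 8 of 62 members fell: Eif1ax, Eif1b, Eif2b2, Eif2s1, Eif3h, Eif4a1, Eif4e2 and Eif6. They are 12.9% of the members beside 13.98% of all genes, near the background. Eif6, Eif4e2, Eif3h and Eif2s1 were within the LZ range in mouse 4 alone (83.2, 46.4, 283 and 40.9 TPM). Since MBCs and LZ B cells of mice 1, 3 and 4 came from the same animals, the mouse was also fitted as a replicate block, and 0 members passed in this paired fit, which rests on 6 libraries, beside 0.989% of all genes as higher and 0.897% as lower. At an unadjusted p under 0.05 (limma) 1 of 62 members was higher and 7 lower in it (1.61% and 11.3%), beside 6.86% and 9.93%.

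On the lower side Eif4a1 and Eif2b2 followed Eif1ax and Eif1b by p. Eif4a1, the main helicase of eIF4F, was at 405, 306, 382 and 254 TPM in LZ B cells and 178, 179 and 222 TPM in MBCs, without overlap, and its log2 difference was -0.78 (interval -1.29 to -0.27, adjusted p = 0.0652). Eif2b2, the beta subunit of eIF2B, was at 40.7, 52.1, 42.3 and 33.4 TPM against 14.7, 14.5 and 28.2 TPM, with a log2 difference of -1.15 (adjusted p = 0.0729). Eif3h, Eif3i, Eif3k, Eif3l, Eif2s1, Eif4a3, Eif4e2 and Eif6 also had an unadjusted p under 0.05 as lower. For Eif2s1 the MBC values were 18.3, 12.9 and 40.9 TPM, the last within the LZ range.

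On the higher side 4 members had an unadjusted p under 0.05, and in each of them all MBC libraries lay above all LZ libraries. With Eif2ak1 this held for 5 of the 64 members tested, or 7.81%, beside 11.8% of all genes, a lower share than the background. Eef2 was at 755, 756 and 912 TPM in MBCs beside 334 to 652 TPM in LZ B cells, a log2 difference of 0.76 (interval 0.18 to 1.35, adjusted p = 0.0966 by limma). Eif4a2, the paralog of Eif4a1, was at 693, 720 and 696 TPM beside 385 to 650 TPM, a log2 difference of 0.54 (interval 0.06 to 1.03, adjusted p = 0.144). Eif2ak2, the kinase PKR that double-stranded RNA activates, was at 24.4, 22.1 and 17.8 TPM beside 9.31 to 12.4 TPM, a log2 difference of 0.90 (interval 0.12 to 1.68, adjusted p = 0.134). Eif4e3, a cap-binding relative of eIF4E, was at 9.65, 2.44 and 6.45 TPM beside 0.59 to 1.79 TPM, a log2 difference of 1.5 (adjusted p = 0.126). The fifth, Eef1g, a subunit of eEF1B, was at 541, 955 and 813 TPM beside 355 to 693 TPM, with overlap and a log2 difference of 0.60 (adjusted p = 0.202).

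**Figure D4:**
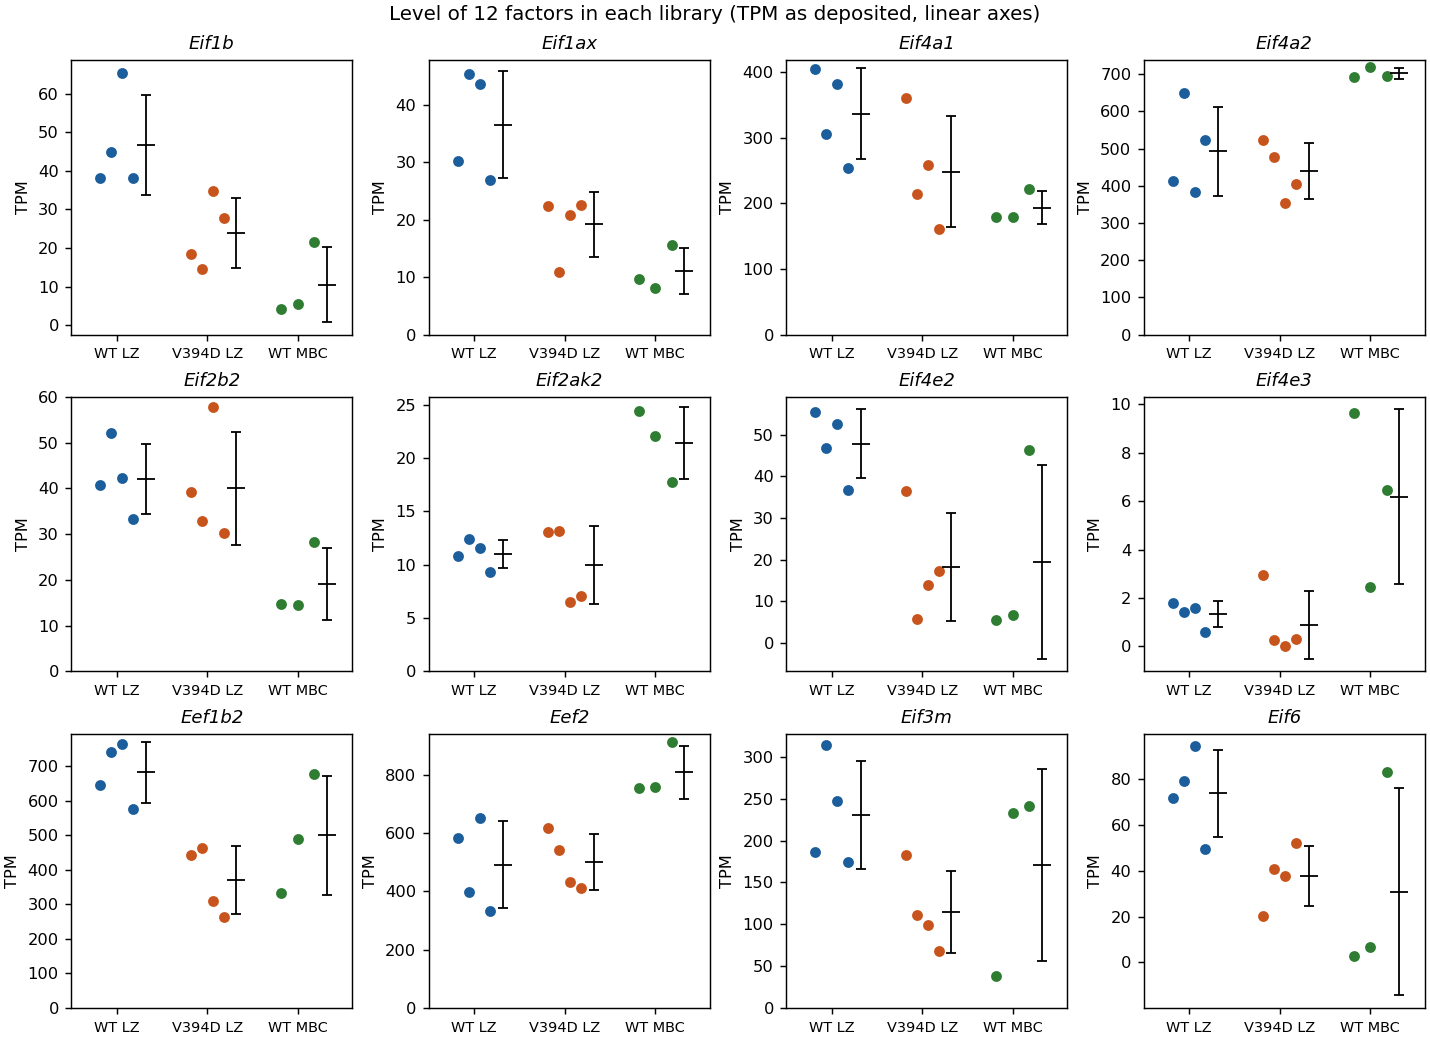
Level of 12 factors in each library (TPM, linear axes) in Myc WT LZ, Myc V394D LZ and Myc WT MBCs, with the mean and SD beside the points. MBCs lie below all Myc WT LZ libraries for Eif1b, Eif1ax, Eif4a1 and Eif2b2 and above them for Eif4a2, Eif2ak2, Eif4e3 and Eef2, and Eif6 and Eif4e2 show 1 MBC library (mouse 4) far above the other 2.

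By role, the eIF2α kinases were the group furthest on the higher side in MBCs, with a median log2 difference of 0.72 over 4 genes, of which 3 were higher. Eif2ak1, the heme-regulated kinase, was at 31.4, 44.8 and 36.8 TPM in MBCs beside 15.3 to 31.0 TPM in LZ B cells, without overlap, and its highest value was in the library of mouse 3 with the most globin transcripts, whose part in this was not tested. Eif2ak4 was at 11.6, 32.6 and 9.32 TPM in MBCs, again highest in mouse 3, and Eif2ak3, the kinase of the endoplasmic reticulum, at 35.1, 45.5 and 27.2 TPM beside 32.9 to 47.1 TPM in LZ B cells. Medians on the lower side were those of eIF5A and eIF6 (-0.91, 3 tested), start codon selection (-0.82, 7 tested), eIF2B (-0.55), eIF2 and its relatives (-0.52), the kinase and methyltransferases of the elongation factors (-0.49, 4 tested, with Eef1akmt1 and Eef2k among them), eIF3 (-0.47) and eIF4F with cap binding (-0.25), while eEF1 and eEF2 had 0.12 and the eIF4E binding proteins 0.31. All of these kept their sign under the 3 other scalings. Within eIF5A and eIF6, Eif5a was at 87.1, 334 and 164 TPM in MBCs, so that mouse 3 lay within the LZ range and the other 2 below it.

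The third comparison sets Myc V394D LZ B cells beside Myc WT MBCs. It shares its libraries with the first and the second, so it is no independent test of either. Of the 64 members tested, Eef1akmt1 reached the filter on low values only through Myc V394D LZ B cells, and Eef2k and Eif4e3 only through MBCs, so these 3 are left out of the counts (Eef1akmt1 and Eef2k alone with the rRNA genes removed). In the TPM as deposited 35 of the other 61 members were lower in Myc V394D LZ B cells and 26 higher, with a median log2 difference of -0.11 beside -0.16 for all 13131 genes. After removal of the rRNA genes the direction turned, with 42 members higher and 20 lower. The median was then 0.26, beside 0.22 for all genes and 0.17 for those averaging 1 TPM or more in both groups. No member passed the adjusted threshold, beside 1.36% of all genes as higher and 2.52% as lower, and at an unadjusted p under 0.05 (limma) 2 were higher and 7 lower (3.28% and 11.5%) beside 7% and 12.3%. Without the rRNA genes 0 members passed, beside 2.11% as higher and 1.33% as lower, and the unadjusted counts were 7 higher and 2 lower (11.3% and 3.23%) beside 10.9% and 6.58%. Of genes averaging 1 TPM or more in both groups, 6.36% were higher and 12.8% lower at that threshold as deposited. With the rRNA genes removed these shares were 10.9% and 6.67%. Without the MBC library of mouse 1 Eef1g fell (adjusted p = 0.0476), without that of mouse 4 Eif6 was higher by 2.78 on the log2 scale (adjusted p = 0.0284), and with all 3 groups in 1 fit Eef1g and Eif4b fell. The last are 3.28% of the 61 members beside 7.73% of all genes, and the single genes 1.64% each beside 1.63% lower and 3.07% higher.

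Eef1g was lower in all 4 Myc V394D LZ libraries (474, 389, 295 and 289 TPM) than in all 3 MBC libraries, as were 7 of the 64 members tested (10.9%, beside 12.5% of all genes), a log2 difference of -1.08 (95% interval -1.70 to -0.45, adjusted p = 0.0616 by limma). Eif4b, the cofactor that stimulates eIF4A, was at 149, 156, 122 and 95.1 TPM beside 175, 370 and 270 TPM in MBCs, without overlap, a log2 difference of -1.01 (adjusted p = 0.116) that became -0.62 without the rRNA genes (adjusted p = 0.296). Eif4a2 (522, 478, 353 and 405 TPM in Myc V394D LZ) and Eef2 lay below MBCs in all libraries, with log2 differences of -0.69 (adjusted p = 0.125) and -0.70 (adjusted p = 0.128), which were -0.29 and -0.30 without the rRNA genes. Eif3e, at 200.1, 173 and 319 TPM in MBCs, had -1.01 (adjusted p = 0.181), with mouse 5 within the range of MBCs. On the other side were Eif2b2 (39.3, 32.8, 57.7 and 30.2 TPM, above all MBC libraries, as for 1.56% of members and 5.99% of all genes, log2 difference 1.05, adjusted p = 0.223) and Eif1b (18.4, 14.5, 34.8 and 27.9 TPM, 1.36, adjusted p = 0.258). Eef1akmt2 (15.3, 3.22 and 12.01 TPM in MBCs, adjusted p = 0.355) and Eif6 (adjusted p = 0.403) followed, with overlap. Eef1akmt1, listed at 0 in MBCs and at 0, 1.53, 2.96 and 3.48 TPM in Myc V394D LZ, is given with no p.

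Paralogs were then compared by their ratio within each library, which no scaling of the library can change. The ratio of Eif4a2 to Eif4a1 was 1.02, 2.12, 1.01 and 2.06 in Myc WT LZ B cells, 1.45, 2.23, 1.37 and 2.53 in Myc V394D LZ B cells and 3.88, 4.01 and 3.13 in MBCs of mice 1, 3 and 4. All MBC libraries had a higher ratio than all LZ libraries, with a difference in mean log2 ratio of 1.33 from Myc WT LZ and of 1.00 from Myc V394D LZ. By a two-sided exact permutation test of 4 against 3 libraries the first had p = 0.0286, the smallest p this design allows, and 0.214 after Benjamini-Hochberg adjustment over the 15 ratio tests made. The second had p = 0.0571 (exact permutation, adjusted 0.286) and the genotypes, whose ratios overlapped, had p = 0.429 (exact permutation) for a difference of 0.33. Within mice 1, 3 and 4 the log2 ratio was higher in MBCs by 1.93, 1.99 and 0.61 (exact sign-flip permutation p = 0.25, the smallest that 3 pairs allow). eIF4A1 and eIF4A2 are near-identical helicases, and their reads were divided by an estimate, so that a share of each level is uncertain; a pseudogene of the family, Eif4a-ps4, was at 1.09 to 22.3 TPM.

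The ratio of Eif1b to Eif1 was 0.122, 0.168, 0.215 and 0.165 in Myc WT LZ B cells, 0.0604, 0.0564, 0.148 and 0.168 in Myc V394D LZ B cells and 0.0140, 0.0163 and 0.0820 in MBCs. It was lower in all MBC libraries than in all Myc WT LZ libraries, with a difference in mean log2 ratio of -2.63 (exact permutation p = 0.0286, adjusted 0.214), while Eif1 itself was at 231 to 312 TPM in Myc WT LZ and 264 to 338 TPM in MBCs. For the other 3 ratios, Eif5a2 to Eif5a, Eif4e2 to Eif4e and Eif4ebp2 to Eif4ebp1, groups overlapped in every comparison and the smallest exact permutation p was 0.114. Eif5a2 was the minor form throughout, at 1.08 to 5.79 TPM. Eif4ebp1, the mTORC1-controlled repressor of eIF4E, was at 9.45, 9.25, 10.4 and 8.36 TPM in Myc WT LZ but at 20.0, 0.27, 5.94 and 1.12 TPM in Myc V394D LZ and 6.27, 5.89 and 21.5 TPM in MBCs. Eif4ebp2 was the major form in all libraries, at 130, 75.4, 125 and 73.1 TPM, 164, 105, 146 and 68.3 TPM, and 156, 159 and 115 TPM, and Eif4ebp3 reached at most 19.6 TPM.

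**Figure D5:**
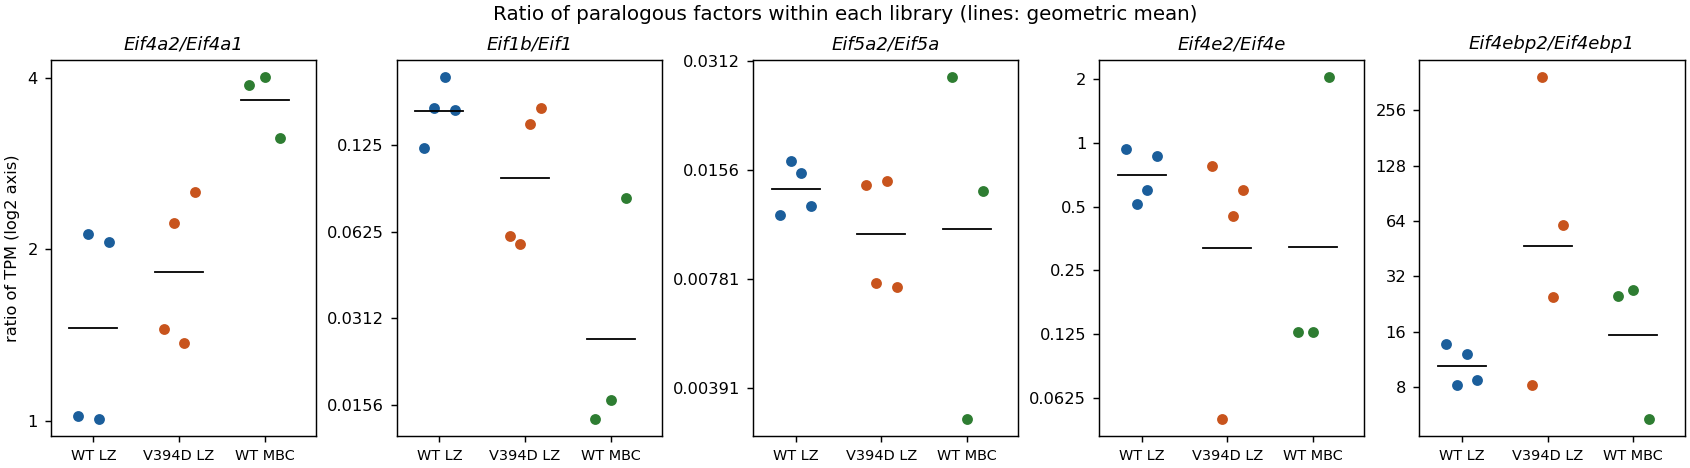
Ratio of paralogous factors within each library (log2 axis) for Eif4a2 to Eif4a1, Eif1b to Eif1, Eif5a2 to Eif5a, Eif4e2 to Eif4e and Eif4ebp2 to Eif4ebp1, with the geometric mean of each group as a line. The 3 MBC libraries lie above all LZ libraries for Eif4a2 to Eif4a1 and below all Myc WT LZ libraries for Eif1b to Eif1.

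MYC and its partner MAX bind the E-box, the letters CACGTG, which read the same on both strands. Of 52 members with at least 1 entry in the RefSeq promoter table (GRCm38.p6, 250 bases before to 50 after the annotated start), 12 held an E-box, or 23.1%, beside 8.91% of protein-coding genes and 8.09% of all genes in that table. By window these shares were 20.9% of 67, 7.84% and 7.15%. The members were Eef2, Eef2k, Eif1b, Eif3a, Eif3f, Eif3k, Eif4a1, Eif4e, Eif4g1, Eif4h, Eif5a and Eif5a2. A run of at least 5 pyrimidines from a C at the annotated start, as in terminal oligopyrimidine mRNAs, was found in the windows of Eif3f and Eif2s3x only, 3.85% of members beside 2.67% of protein-coding genes, and depends on the exact start annotated. These are matches of letters and no measure of binding. Since the ratio of Eif4a2 to Eif4a1 was the one in which all MBC libraries lay apart from all LZ libraries of both genotypes, the 250 bases before their starts are shown with the E-box in capitals. That of Eif4a1 (chr11:69672424-69672673, minus strand) holds it 189 to 184 bases before the start, and that of Eif4a2 (chr16:23107218-23107467, plus strand) does not hold these letters.
Eif4a1: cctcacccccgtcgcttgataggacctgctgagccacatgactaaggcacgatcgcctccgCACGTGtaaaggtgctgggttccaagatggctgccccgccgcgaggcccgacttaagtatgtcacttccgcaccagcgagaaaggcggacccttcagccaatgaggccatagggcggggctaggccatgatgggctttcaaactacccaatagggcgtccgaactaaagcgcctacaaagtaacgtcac
Eif4a2: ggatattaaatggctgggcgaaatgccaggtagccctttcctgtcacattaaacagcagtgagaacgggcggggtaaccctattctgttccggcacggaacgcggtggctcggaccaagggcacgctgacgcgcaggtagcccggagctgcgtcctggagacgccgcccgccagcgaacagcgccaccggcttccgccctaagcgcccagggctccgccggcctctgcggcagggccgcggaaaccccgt

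For 4 further members described above, the 36 bases around an E-box before the start are shown, again with the E-box in capitals. These are Eif1b (chr9:120492567-120492602, plus strand), Eif3k (chr7:28981912-28981947, minus strand), Eef2 (chr10:81176573-81176608, plus strand) and Eif4g1 (chr16:20672658-20672693, plus strand).
Eif1b: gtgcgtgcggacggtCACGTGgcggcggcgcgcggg
Eif3k: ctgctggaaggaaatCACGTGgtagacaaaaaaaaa
Eef2: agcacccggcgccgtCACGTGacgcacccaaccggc
Eif4g1: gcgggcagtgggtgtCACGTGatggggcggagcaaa

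Other genes of translation were taken from lists. Of 15 further regulators of initiation, 3 rose and 1 fell in MBCs relative to Myc WT LZ B cells (beside 4.17% and 5.04% of all genes), and 0 of 15 passed between genotypes (limma, with 2 lower at an unadjusted p under 0.05, a threshold that 15.7% of all genes passed as lower). Pdcd4, an inhibitor that binds eIF4A and blocks its helicase, was at 14.1, 14.03, 15.7 and 15.7 TPM in Myc WT LZ, 10.3, 27.1, 9.19 and 16.5 TPM in Myc V394D LZ and 183, 157 and 173 TPM in MBCs. It rose by a log2 difference of 3.44 from Myc WT LZ (adjusted p = 0.0004) and passed in all 16 alternatives, with adjusted p between 0.00011 and 0.00568. From Myc V394D LZ the log2 difference to MBCs was of similar size (-3.48 with Myc V394D as the first group, adjusted p = 0.00178). The helicases Ddx3x (119, 104, 139 and 93.5 TPM in Myc WT LZ, 174, 273 and 256 TPM in MBCs, adjusted p = 0.0372) and Dhx29 (8.66, 10.1, 12.6 and 6.75 TPM against 24.2, 30.3 and 31.2 TPM, adjusted p = 0.0358) also rose, by 1.02 and 1.51. Atf4, the transcription factor whose translation eIF2α phosphorylation favors, fell from 83.5, 88.4, 91.1 and 60.7 TPM to 17.1, 9.90 and 40.9 TPM, by 2.00 on the log2 scale (adjusted p = 0.0282). Of the 16 alternatives, 7 kept the call of Ddx3x, 10 that of Dhx29 and 8 that of Atf4, with adjusted p of up to 0.197, 0.249 and 0.117. These 3 highest values came from the fit with the mouse as a block, in which Pdcd4 alone of the 4 passed. Between the same groups, Ppp1r15a of this list fell without the MBC library of mouse 4 (adjusted p = 0.0247 by limma), beside 13.98% of all genes. Mknk1 rose without that of mouse 3 (adjusted p = 0.0343), beside 6.78%.

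Of the 2 enzymes that place hypusine on eIF5A, Dhps fell in MBCs. It was at 15.9, 26.5, 30.5 and 23.96 TPM in Myc WT LZ, 22.1, 13.2, 23.1 and 13.5 TPM in Myc V394D LZ and 2.56, 0.25 and 3.94 TPM in MBCs, without overlap between LZ B cells and MBCs. The log2 difference from Myc WT LZ was -3.13 (adjusted p = 0.0127 by limma, up to 0.104 over 16 alternatives, of which 12 kept the call and the fit with the mouse as a block did not), and between Myc V394D LZ and MBCs it was 2.72 (adjusted p = 0.0469, kept in 6 of 15 alternatives). Dohh, the second enzyme, was at 0.85, 0 and 25.4 TPM in MBCs beside 5.64 to 16.9 TPM in Myc WT LZ. Without the MBC library of mouse 4 it reached the filter through LZ B cells alone, so no p is given for that fit. None of 7 termination and recycling factors tested and none of 9 mitochondrial translation factors passed in any of the 3 comparisons as reported (limma), with 0 higher and 1 lower in the first list between genotypes at an unadjusted p under 0.05 and 1 higher and 2 lower in the second between MBCs and Myc WT LZ, where 1.24% and 15.7% of all genes were called in the first case and 11.3% and 15.8% in the second. Some passed under alternatives. Between MBCs and Myc WT LZ, Mtif3 rose and Gfm1 fell without the MBC library of mouse 4 (adjusted p = 0.0194 and 0.0133), beside 7.06% and 13.98% of all genes. Tsfm, at 0 and 0.34 TPM in MBCs of mice 1 and 3, then reached the filter through LZ B cells alone, so no p is given. Mtrf1l fell without the MBC library of mouse 1 (adjusted p = 0.0459) and Tsfm in the fit of all 3 groups (0.0417), in which Mtif3 was also lower in Myc V394D LZ than in MBCs (0.0398). Hbs1l, of the first list, fell without the MBC library of mouse 4 and the rRNA genes (0.0386).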

How the data were processed

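RNA of 11 libraries was deposited by the authors as 1 table of TPM with 2 decimals. Per the labels and the study's methods, reads were aligned with STAR 2.5.2a and quantified with RSEM 1.3.0 against Ensembl genes of GRCm38 with a strand-specific setting. The annotation release is not given in the sources used here. The submitters' notes also name DESeq2 1.18.1. TPM hold no depth, so precision comes from the spread between mice alone, and a value of 0 may stand for an estimate that failed. Reads shared by near-identical copies or pseudogenes (Eif4a1, Eif4a2, Eif3j1, Eif3j2, Eif1a, Eif1ax, Eef1a1, Eif3e) are divided by estimate.

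Symbols, biotypes and coordinates came from the GENCODE M21 annotation (GRCm38), which matched 48435 gene IDs and left 360 without a symbol. Values were analysed as log2(TPM + 1) by limma 3.58.1 under R 4.3.3, using lmFit and a trended eBayes. Genes had to average 1 TPM or more across the libraries fitted, with 2 groups per fit, two-sided tests and Benjamini-Hochberg adjustment at 0.05 over all genes tested. Fold changes on this scale understate those of low genes. Ratios of paralogs were compared by exact permutation over 35 or 70 groupings (numpy 2.4.6, pandas 2.3.3 and scipy 1.17.1 in Python 3.11.15). The fits were also run on simulated data with the spread of these libraries. They missed most of the changed genes in all 3 comparisons and, between MBCs and Myc WT LZ, a sizeable share of the few calls was false. The simulation held fewer changed genes than were called between MBCs and Myc WT LZ in the data. Its rates of missed and false calls therefore need not hold for the data. A count of 0 is no sign of equal levels. Single calls between MBCs and Myc WT LZ changed with the libraries fitted and are uncertain.

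Per-library values or ranges are given for 14 factors picked for their roles, for the 5 members with the smallest p higher and the 5 lower in each comparison, and for paralog pairs. Eef1akmt1, Eef1akmt3, Eef1d, Eef1g, Eif1a, Eif2b3, Eif3e, Eif3h, Eif3i, Eif3j2, Eif4e1b, Eif4e3, Eif4ebp1, Eif4ebp3, Eif4g2 and Eif6 have no entry in the promoter table. MBC and LZ libraries of the same number come from the same mouse by their labels. Pearson's r between their deviations from the mean of each group, across genes, was 0.0048, 0.0017 and -0.0351 for mice 1, 3 and 4. Single genes of the other lists, and members given as examples of spread or role, were picked after their values were seen. The members, the gene lists and the tests were chosen with earlier results of these data known.

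Alternatives were removal of the rRNA genes, protein-coding genes alone rescaled to 1000000 TPM, scaling by the median ratio, a filter at 5 TPM, no filter, no trend, a pseudocount of 0.1, a joint fit of all 3 groups, leaving out single libraries and a replicate block for the mouse. Chosen after seeing the data were the last 2 with the rRNA genes removed, and the ratios of paralogs with each library left out or within pairs. The counts without members that reached the filter through 1 group alone (an average under 1 TPM in the other) were also added then.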

Additional observations from a re-analysis of the deposited data

Results flagged for a closer look

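Within the groups of 4 libraries, single libraries stood far from the other 3 (a gap to the nearest above Dixon's 95% critical value for 4 samples), which chance gives in about 1 in 20 groups. Of 76 groups tested, 5 did so. Eif1ax was lowest in Myc V394D mouse 6, at 10.84 TPM beside 20.8 to 22.5 TPM in the other 3. Eif2s1 was highest in Myc V394D mouse 5, at 54.69 TPM beside 26.5 to 31.1 TPM. Eif4e3 was highest in the same library, at 2.97 TPM beside 0 to 0.3 TPM. Eif3e was lowest in Myc WT mouse 4, at 170.04 TPM beside 239 to 242 TPM. The ratio of Eif4ebp2 to Eif4ebp1 was highest in Myc V394D mouse 6, at 388.0 beside 8.21 to 60.9, where Eif4ebp1 was listed at 0.27 TPM.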

How the results depend on the processing

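Between genotypes 0 members passed as reported and in 15 of 16 alternatives, and leaving out single libraries gave between 0 and 4. The median log2 difference of the members was -0.48 and between -0.61 and -0.34 with single libraries left out, but -0.17 without rRNA genes, -0.13 with protein-coding genes only and -0.13 with median ratio scaling. Eif3j1, at 0.10, was at -0.042 without Myc V394D mouse 5 and at most at 0.1812 with another library left out.

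Between MBCs and Myc WT LZ 3 members passed with Eef1akmt1, whose outcome the filter fixed, 6 with protein-coding genes only, 6 with median ratio scaling, 5 with all 3 groups in 1 fit (all lower; without Eef1akmt1 and Eef2k 2, then 5, 5 and 4 of 62, the last 3 being 8.06%, 8.06% and 6.45% beside 7.36%, 6.65% and 7.71% of all genes), 0 with no filter and 0 with the mouse as a replicate block, in which no member was past the threshold and of the other translation genes called only Pdcd4 remained (adjusted p = 0.00568 by limma). Within pairs the 5 paralog ratios gave exact sign-flip p of 0.25 to 1, and 0.25 is the smallest possible. Leaving out single libraries gave between 0 and 9 members. With the rRNA genes removed the paired fit gave 0 and the libraries left out in turn between 0 and 13, beside 4. The 13 are 12 of 62 without Eef1akmt1 (19.4%, beside 15.6% of all genes), and came without the MBC library of mouse 4. The other 2 comparisons share no mice between groups. The median of the members, at -0.29, kept its sign in all alternatives and was between -0.42 and -0.18 with single libraries left out.

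Between Myc V394D LZ and MBCs 0 members passed, with 3 in all 3 groups in 1 fit (2 without Eif4e3, which reached the filter through MBCs alone) and between 0 and 1 with single libraries left out (0 to 3 with the rRNA genes removed, where Eif1b, Eif2b2 and Eif6 were higher without the MBC library of mouse 4, or 4.84% beside 4.58% of all genes). The median was -0.12 and between -0.31 and -0.03 with single libraries left out, but 0.26 without rRNA genes, 0.24 with protein-coding genes only and 0.17 with median ratio scaling.

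Read depth is unknown, which limits statements on low members.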
